A study of Homo sapiens with 6 samples.

Results

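The genes described here are 60 known direct targets of p53, the transcription factor that responds to DNA damage and other stress. They were taken by name from a list of established targets that leaves out CDKN1A and MDM2, and all 60 were among the 39282 genes in the deposited tables. By the role each is best known for, 9 act in cell cycle and growth arrest, 19 in cell death, 5 in DNA repair and nucleotide supply, 13 in metabolism and redox control, and 14 in secretion, signalling, trafficking and the turnover of RNA or protein. All 60 passed the filter on low counts that kept 16855 genes. TNFRSF10A and SPATA18 passed it through TOV21G and EDA2R through PA-1, since each had almost no reads in the other line.

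p53 binds DNA as a tetramer at sites made of 2 decameric half-sites and switches on genes that halt the cycle, repair DNA, rewire metabolism or kill the cell. The protein is kept low by the ubiquitin ligase MDM2, which is itself a target, so p53 activity is controlled mainly through protein stability.

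Both cell lines are human ovarian tumour lines: PA-1, labelled a teratocarcinoma, and TOV21G, labelled a clear cell carcinoma. Each line gave 3 poly(A)-selected libraries: 1 with lentiviral hairpin 1 against MEX3A, an RNA-binding ubiquitin ligase, 1 with hairpin 2 against MEX3A, and 1 with a scramble hairpin, called the control. The groups were therefore PA-1 with MEX3A hairpins (n = 2), TOV21G with MEX3A hairpins (n = 2), the PA-1 control (n = 1) and the TOV21G control (n = 1). The series title places the question on p53 degradation and ferroptosis. The hairpins are different reagents, every library of a line went through viral delivery of a hairpin, and the labels do not say that libraries came from separate cultures, so a p-value reflects no more than how much these particular libraries vary.

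The libraries held between 14654628 and 19495162 expected counts, so that 3 counts, the most that a count of 0 allows, equal 0.153 to 0.202 CPM (counts scaled to a common library size by TMM, in the usual unit). These limits cover counting error only. MEX3A stood at 41.2 and 54.9 CPM with hairpins 1 and 2, against 137 CPM in the control of PA-1, and at 40.1 and 33.1 CPM, against 78.3 CPM, in TOV21G. The 7 pluripotency markers summed to 3499 and 4041 CPM with the hairpins, against 4153 CPM in the control of PA-1, and to at most 84.9 CPM in any TOV21G library. The clear cell carcinoma markers ANXA4, NAPSA and SPP1 summed to 1823 and 3964 CPM with the hairpins, against 6669 CPM in the control of TOV21G, and to 924 and 881 CPM, against 184 CPM, in PA-1. Most of that was SPP1, with 894 and 852 CPM, against 166 CPM, in PA-1 (DESeq2 adjusted p = 0.00371, edgeR adjusted p = 1), while NAPSA held only 17 and 3 expected counts with the hairpins, against 7 in the control of TOV21G. The labels also name ovarian surface epithelium, of which EPCAM was under 3 counts in every PA-1 library and CDH1 was at most 3.88 CPM in any library, with KRT8 and KRT18 between 60.0 and 216 CPM. With KRT19, these 5 markers summed to 296 and 403 CPM with the hairpins, against 269 CPM in the control of PA-1. In TOV21G they summed to 265 and 233 CPM, against 155 CPM. Of 4 fibroblast and stroma markers, the 3 tested summed to at most 35.1 CPM in any library. PTPRC and HBB, markers of blood cells, had at most 0.134 CPM. The list of 5 blood and endothelium markers also held CD68, PECAM1 and VWF. Its 3 tested genes summed to 56.6 and 89.5 CPM with the hairpins, against 83.6 CPM in the control of PA-1. In TOV21G they summed to at most 6.99 CPM in any library. In these bulk libraries, fewer cells of a type and less RNA per cell cannot be told apart.

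RefSeq promoter sequences (GRCh38.p14, 250 bases before to 50 after each start) were available for 49 of the 60 genes, and they were searched on both strands for the p53 half-site, a palindromic decamer, and for pairs of half-sites with a gap of up to 13 bases, in which the fixed C and G of each half-site were kept. An exact half-site lay in at least 1 promoter of 9 of these 49 genes (18.4%) and of 2202 of 27305 genes in the table (8.06%). A pair with at most 2 mismatches in all lay in 5 of the 49 (10.2%) and in 989 of 27305 (3.62%). The pairs are shown here because they are the part of a promoter that p53 could contact. They are written 5′ to 3′ on the strand of the gene, capitals mark bases that match the half-site consensus, and lower case marks mismatches and gaps.
DDB2, chr11:47214979-47214999, plus strand: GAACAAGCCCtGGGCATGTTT
FAS, chr10:88991309-88991328, plus strand: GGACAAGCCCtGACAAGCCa
AEN, chr15:88621306-88621325, plus strand: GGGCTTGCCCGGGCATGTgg
FDXR, chr17:74872996-74873025, minus strand: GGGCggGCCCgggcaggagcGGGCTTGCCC
DCP1B, chr12:2004650-2004669, minus strand: GGGCAgGCCTGGGCTTGTCg
The DDB2 pair matched the consensus at every position, with a gap of 1 base, and 10 of the 27305 genes held a pair without mismatch at any gap searched. It lay 5 to 25 bases after an annotated start of DDB2, inside the transcript. The FAS pair lay 103 to 122 bases before an alternative start of FAS. That place is inside the annotated gene, and the pair overlaps an annotated exon.

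Of the genes that held a single exact half-site, SESN1 and ISCU are shown with 100 bases, and PLK2, RAP2B and RPS27L with 30 bases. The windows of SESN1, ISCU and RAP2B overlap no annotated exon. The SESN1 window lies at an alternative start inside the annotated gene. Capitals mark the half-site.
SESN1, chr6:109008989-109009088, minus strand: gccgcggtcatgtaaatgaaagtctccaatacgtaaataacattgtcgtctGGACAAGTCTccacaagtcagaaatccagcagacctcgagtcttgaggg
ISCU, chr12:108562353-108562452, plus strand: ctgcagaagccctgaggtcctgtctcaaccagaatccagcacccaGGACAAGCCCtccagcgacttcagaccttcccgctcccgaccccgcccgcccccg
PLK2, chr5:58460199-58460228, minus strand: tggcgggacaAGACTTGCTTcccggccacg
RAP2B, chr3:153162155-153162184, plus strand: ggaacgcactGGGCATGCTCgccggggagg
RPS27L, chr15:63157517-63157546, minus strand: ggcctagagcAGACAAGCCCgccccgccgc
A match describes these letters alone, and p53 is known to bind many of its targets at introns or distant elements outside such windows.

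The first question was how the targets behaved with each MEX3A hairpin in each line. In PA-1, 49 of the 60 genes were higher with both hairpins than in the control, where 33.8% of all genes tested were, and 3 were lower with both (34.0% of all genes). In TOV21G, 45 were higher with both hairpins (31.3% of all genes) and 2 were lower with both (31.9%). Both differences of a line share its control. Over both lines, 37 genes were higher in all 4 hairpin libraries (14.3% of all genes) and 1, CCNG1, was lower in all 4 (15.0%). The median difference from the control over the 60 genes was 0.30 and 0.54 on the log2 CPM scale with hairpins 1 and 2 in PA-1, and 0.61 and 0.63 in TOV21G, with a median of 0.00 over all genes for each hairpin.

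The differences were mostly modest in size. At least 2-fold higher with both hairpins were BTG2, PLK2 and SFN in PA-1 (3.36% of all genes). In TOV21G there were 8 such genes (4.26% of all genes), namely BBC3, EDA2R, TP53INP1, ASCC3, SESN1, ACER2, CD82 and ORAI3, of which EDA2R had 2 counts with hairpin 1 and 0 in the control and so gives no fold. None of the 60 was at least 2-fold higher in all 4 libraries (0.451% of all genes), and none was at least 2-fold lower with both hairpins in a line (0.682% of all genes in PA-1 and 3.36% in TOV21G).

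**Figure D1:**
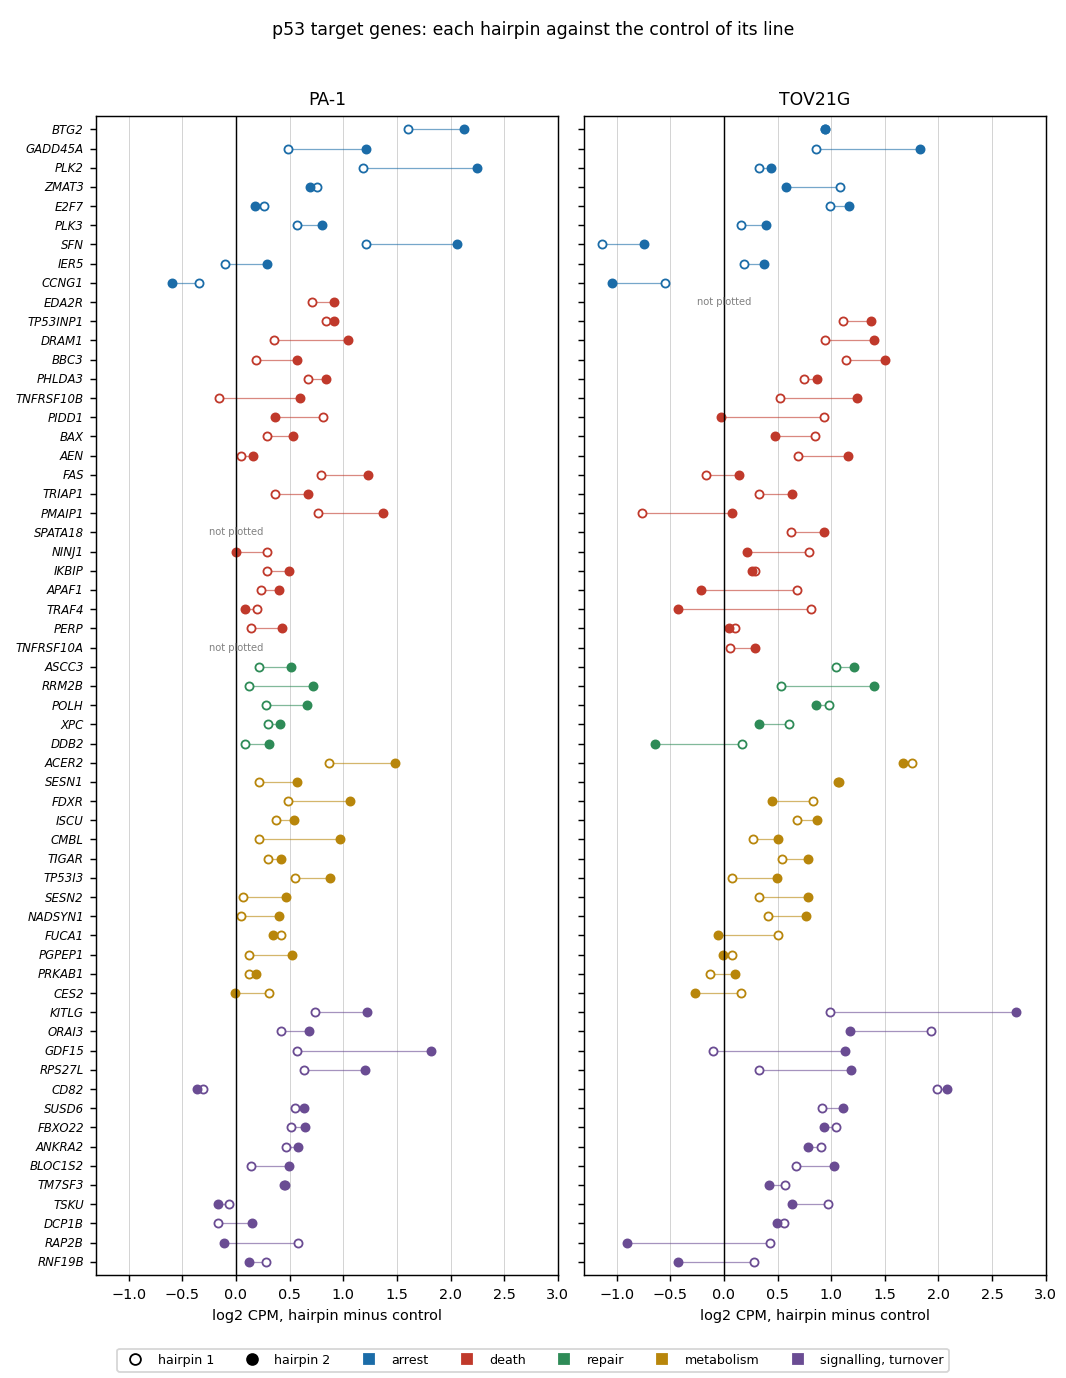
Difference in log2 CPM (prior count 2) between each MEX3A hairpin and the control of its line for the 60 p53 target genes, with open points for hairpin 1, filled points for hairpin 2 and colours for the role groups; genes with almost no reads in a line are not plotted there. Most points lie right of 0 in both lines, while CCNG1 lies left of 0 with both hairpins in both lines, and SFN and CD82 lie on opposite sides of 0 in the 2 lines.

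No single gene among the 60 passed edgeR's quasi-likelihood test after Benjamini-Hochberg adjustment over all 16855 genes, whether in PA-1, TOV21G or the mean of both lines, and 0% of all genes passed. At an unadjusted p under 0.05 there were 7 higher in PA-1 (2.18% of all genes) and 0 lower (0.392%). In TOV21G there were 24 higher (4.15%) and 1 lower (5.41%), and for the mean of both lines 27 higher (4.47%) and 1 lower (3.73%). The lower gene was CCNG1 each time. Without the TOV21G library of hairpin 1, the median log2 fold change over the 60 genes was 0.64 in TOV21G and 0.59 for the mean. That fit held 1 hairpin library of TOV21G, so its spread came from the PA-1 hairpin libraries alone and its calls are not counted here. DESeq2 called BTG2 higher in PA-1 (0.202% of all genes, with 0.0119% lower), TP53INP1, ASCC3, ACER2 and CD82 in TOV21G (0.558%), and BTG2, TP53INP1 and ACER2 for the mean (0.570%). The fitted log2 fold change, hairpins over control, had a median over the 60 genes of 0.41 in PA-1 (0.00 over all genes tested), of 0.65 in TOV21G (0.02) and of 0.52 for the mean (0.04). For the mean, 59 of the 60 were above 0, as were 54.1% of all genes tested.

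**Figure D2:**
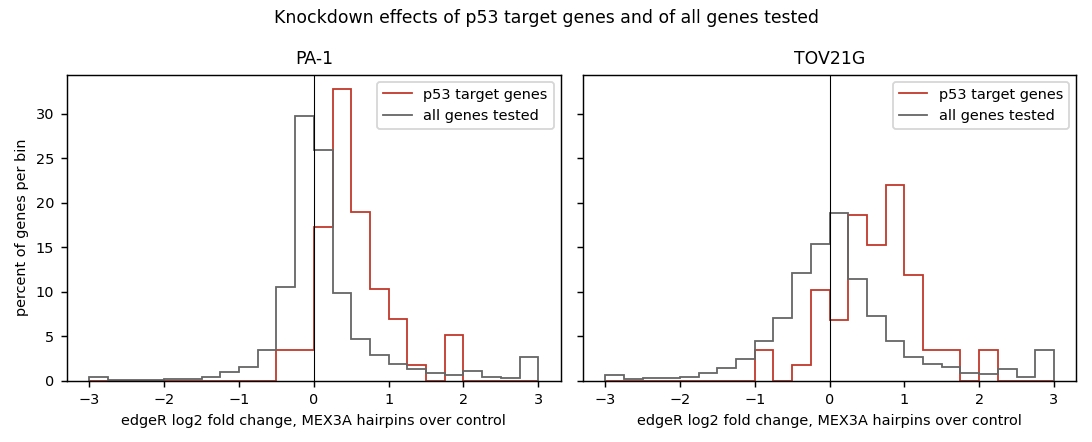
Percent of genes in bins of 0.25 of the fitted edgeR log2 fold change, MEX3A hairpins over control, in PA-1 and TOV21G, for the p53 target genes with reads in the line (red) and all genes tested (grey), with values beyond 3 placed in the end bins. The red outline is displaced to the right of the grey one in both lines, whose centres are near 0.

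Among the 9 arrest genes, 7 were higher with both hairpins in PA-1 (33.8% of all genes) and 7 in TOV21G (31.3%), and 6 in all 4 libraries (14.3%). The exceptions were CCNG1 in both lines, IER5 in PA-1 and SFN in TOV21G. BTG2, an antiproliferative protein that recruits the mRNA deadenylation machinery (chr1:203305491-203309602, plus strand, GENCODE v29 on GRCh38), had 24.3 and 35.0 CPM with hairpins 1 and 2, against 7.93 CPM in the control of PA-1. In TOV21G it had 156 CPM with each hairpin, against 81.1 CPM in the control. All 4 hairpin libraries were above their control, by 3.07-fold and 4.41-fold in PA-1 and by 1.93-fold with each hairpin in TOV21G. The fitted change in PA-1 was 1.90 on the log2 scale (SE 0.34, edgeR adjusted p = 1, DESeq2 adjusted p = 0.00371), and that in TOV21G was 0.95 (SE 0.31, edgeR adjusted p = 0.482).

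PLK2, a stress-induced polo-like kinase (chr5:58453982-58460260, minus strand), had 23.4 and 49.2 CPM with the hairpins, against 10.3 CPM in the control of PA-1, and 441 and 478 CPM, against 351 CPM, in TOV21G. It was thus 34.2-fold higher in the TOV21G control than in the PA-1 control, and hairpin 2 in PA-1 stayed far below every TOV21G library. GADD45A, which acts in growth arrest and repair, had 28.3 and 47.0 CPM with the hairpins, against 20.2 CPM in the control of PA-1. In TOV21G it had 44.4 and 87.0 CPM, against 24.5 CPM. Hairpin 2 gave the higher value in each line.

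E2F7, an atypical E2F that represses cell cycle genes, had 67.7 and 64.0 CPM with the hairpins, against 56.5 CPM in the control of PA-1, and 43.3 and 49.2 CPM, against 21.8 CPM, in TOV21G. ZMAT3, an RNA-binding zinc finger protein, had 162 and 155 CPM, against 96.1 CPM in the control of PA-1, and 442 and 313 CPM, against 209 CPM, in TOV21G. Both genes were above the control in all 4 hairpin libraries, E2F7 by little in PA-1. For the mean of both lines the log2 fold changes were 0.65 (SE 0.18) for E2F7 and 0.79 (SE 0.22) for ZMAT3, and neither passed edgeR (adjusted p = 0.553 for each). PLK3 and IER5 were the smaller ones, at 0.49 (SE 0.25) and 0.20 (SE 0.21).

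CCNG1 encodes cyclin G1, which takes part in feedback on p53 through MDM2 (chr5:163437569-163446151, plus strand). It had 632 and 531 CPM with hairpins 1 and 2, against 804 CPM in the control of PA-1, and 165 and 117 CPM, against 242 CPM, in TOV21G. The hairpin libraries were below the control in both lines, down to 48.4% of it with hairpin 2 in TOV21G. On the log2 scale the fitted change was -0.47 in PA-1 (SE 0.30), -0.78 in TOV21G (SE 0.30) and -0.62 for the mean (SE 0.21), with edgeR adjusted p values of 1, 0.517 and 0.568. CCNG1 was the most abundant of the 60 in the PA-1 control by length-scaled abundance, at 818 TPM (RSEM's transcript abundance, scaled to the same sum in each library). Because of CCNG1, the summed level of the arrest group in PA-1 was 966 and 918 CPM with the hairpins, against 1021 CPM in the control, although 7 of its 9 genes were higher.

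**Figure D3:**
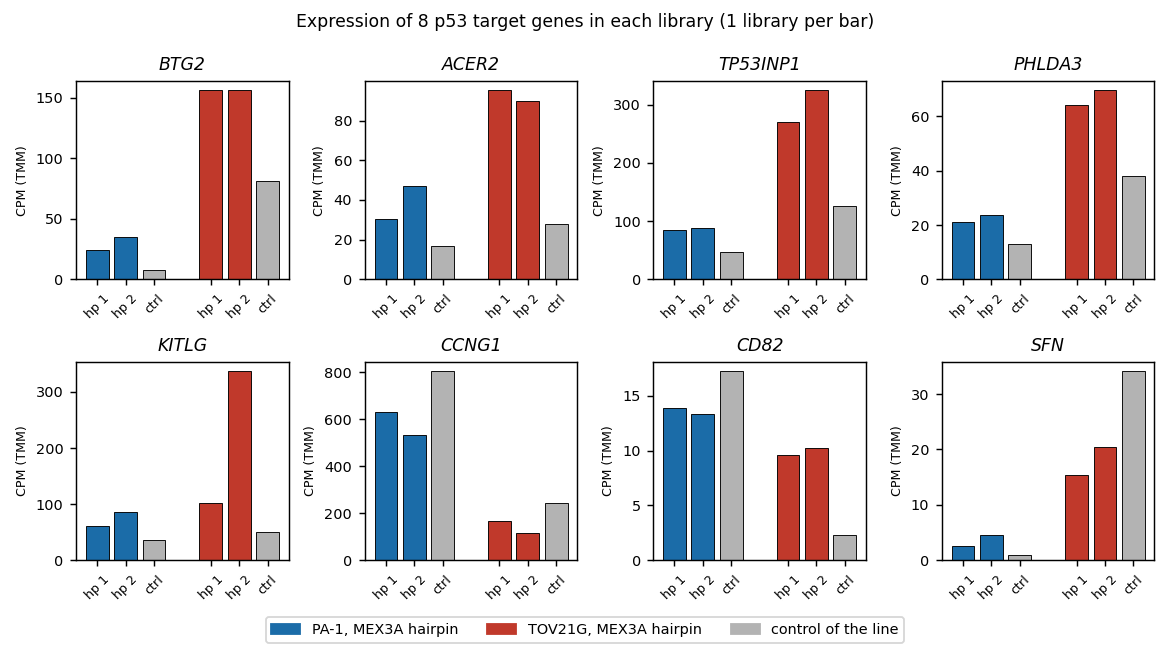
CPM (TMM-scaled) of 8 p53 target genes in each of the 6 libraries, with 1 bar per library, hairpins 1 and 2 left of the control within each line and axes from 0. BTG2, ACER2, TP53INP1, PHLDA3 and KITLG are above the control in all 4 hairpin libraries, CCNG1 is below it in all 4, and CD82 and SFN differ in direction between the lines.

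Of the 19 cell death genes, 15 were higher with both hairpins in PA-1 (33.8% of all genes) and 14 in TOV21G (31.3%), 10 of them in all 4 libraries (14.3%). None was lower with both hairpins in a line (34.0% of all genes in PA-1 and 31.9% in TOV21G). TP53INP1, a nuclear and autophagy protein that promotes p53-dependent death, had 84.2 and 88.7 CPM with the hairpins, against 47.0 CPM in the control of PA-1. In TOV21G it had 270 and 324 CPM, against 125 CPM. The hairpins differed little from each other in either line. Fitted log2 changes were 0.88 (SE 0.26, edgeR adjusted p = 1) in PA-1 and 1.25 (SE 0.26, edgeR adjusted p = 0.382) in TOV21G. For the mean of both lines the value was 1.06 (SE 0.18), with an edgeR adjusted p of 0.547 and a DESeq2 adjusted p of 0.00298.

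PHLDA3, which holds back AKT signalling (chr1:201464383-201469237, minus strand), had 21.0 and 23.7 CPM with the hairpins, against 13.2 CPM in the control of PA-1, and 64.2 and 69.5 CPM, against 38.1 CPM, in TOV21G. Its fitted log2 change was 0.81 (SE 0.26) in TOV21G and 0.76 (SE 0.26) in PA-1, a difference between the lines of 0.05 (SE 0.35). DRAM1, a lysosomal protein of autophagy, had 14.8 and 24.0 CPM, against 11.6 CPM in the control of PA-1, and 100 and 138 CPM, against 52.2 CPM, in TOV21G.

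Of the BH3-only killers, BBC3 was higher with both hairpins in both lines and PMAIP1 in PA-1. BBC3, which encodes PUMA, had 9.65 and 12.6 CPM with the hairpins, against 8.43 CPM in the control of PA-1, and 17.6 and 22.6 CPM, against 7.92 CPM, in TOV21G. PMAIP1, which encodes NOXA, had 32.5 and 49.6 CPM, against 19.1 CPM in the control of PA-1, while in TOV21G it had 6.66 and 12.0 CPM, against 11.4 CPM. PMAIP1 was thus above the control with both hairpins in PA-1 and on either side of it in TOV21G. The differences between lines had unadjusted p values of 0.107 for BBC3 and 0.0878 for PMAIP1 in edgeR's test, with adjusted p = 1 for each. BAX, the pore-forming effector downstream of both, had 78.4 and 92.4 CPM, against 64.1 CPM in the control of PA-1, and 88.1 and 68.1 CPM, against 48.9 CPM, in TOV21G.

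Among the death receptors, FAS (chr10:88990582-89015785, plus strand), whose promoter pair is shown above, had 14.0 and 18.9 CPM with the hairpins, against 7.99 CPM in the control of PA-1, and 146 and 181 CPM, against 164 CPM, in TOV21G. Its TOV21G level was 20.5-fold that of PA-1 in the controls, and there the hairpins fell on either side of the control. TNFRSF10B, which encodes the TRAIL receptor DR5, had 164 and 276 CPM, against 183 CPM in the control of PA-1, and 401 and 658 CPM, against 279 CPM, in TOV21G. TNFRSF10A had 0 counts in every PA-1 library and 21.0 and 24.6 CPM with the hairpins, against 20.1 CPM in the control of TOV21G. EDA2R, the receptor for ectodysplasin A2 on chromosome X, had 35.3 and 40.7 CPM, against 21.5 CPM in the control of PA-1, and 0.132 and 0.806 CPM, against 0 CPM, in TOV21G, where hairpin 2 was at least 4.14-fold above the limit of 3 counts in the control. Reads of the TRAIL receptor family can be split between near-identical relatives, and FAS shares exon bases with ACTA2 on the opposite strand.

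The other cell death genes had smaller or less even differences. AEN, an apoptosis-enhancing nuclease, was close to the control in PA-1 (104 and 113 CPM, against 101 CPM) and higher in TOV21G (98.0 and 135 CPM, against 60.5 CPM). SPATA18, which acts in mitochondrial quality control and had 0 counts in PA-1, had 46.0 and 56.9 CPM with the hairpins, against 29.8 CPM in the control of TOV21G. TRIAP1, a p53-induced survival factor, had fitted log2 changes of 0.53 (SE 0.29) in PA-1 and of 0.49 (SE 0.29) in TOV21G, and PERP, a membrane protein of desmosomes, of 0.29 (SE 0.25) and 0.07 (SE 0.25). APAF1, the core of the apoptosome, PIDD1 and TRAF4 were above the control with both hairpins in PA-1 but with hairpin 1 alone in TOV21G. NINJ1, which acts in rupture of the plasma membrane, had 20.5 and 13.6 CPM, against 11.8 CPM, in TOV21G and 13.4 and 10.9 CPM, against 11.0 CPM, in PA-1. IKBIP was higher in all 4 libraries, by 0.26 to 0.50 in log2 CPM.

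All 5 genes of DNA repair and nucleotide supply were higher with both hairpins in PA-1 (33.8% of all genes) and 4 of 5 in TOV21G (31.3%), all except DDB2. ASCC3, a DNA helicase of the ASCC complex (chr6:100508194-100881372, minus strand), had 289 and 355 CPM with the hairpins, against 249 CPM in the control of PA-1, and 241 and 272 CPM, against 117 CPM, in TOV21G. The fitted log2 change was 1.13 in TOV21G (SE 0.27, edgeR adjusted p = 0.404, DESeq2 adjusted p = 0.0428) and 0.37 in PA-1 (SE 0.26). POLH, the translesion polymerase eta, had 38.4 and 49.8 CPM, against 31.5 CPM in the control of PA-1, and 142 and 131 CPM, against 72.0 CPM, in TOV21G. RRM2B, the p53-inducible ribonucleotide reductase subunit, had 102 and 155 CPM, against 93.9 CPM in the control of PA-1, and 154 and 281 CPM, against 106 CPM, in TOV21G. These 3 genes were above the control in all 4 hairpin libraries, RRM2B mainly with hairpin 2.

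XPC and DDB2 both recognise damage for nucleotide excision repair. XPC had 62.7 and 67.9 CPM with the hairpins, against 51.0 CPM in the control of PA-1, and 108 and 89.4 CPM, against 71.2 CPM, in TOV21G. DDB2, with the complete pair of half-sites printed above, had 29.7 and 34.6 CPM, against 28.0 CPM in the control of PA-1, and 21.0 and 11.9 CPM, against 18.6 CPM, in TOV21G. Its hairpin libraries were therefore close to the control in PA-1 and on either side of it in TOV21G, and the mean log2 fold change was 0.01 (SE 0.29). POLH and XPC share exon bases with genes on the opposite strand.

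Of the 13 metabolism and redox genes, 12 were higher with both hairpins in PA-1 (33.8% of all genes) and 9 in TOV21G (31.3%), and 9 in all 4 libraries (14.3%). ACER2, an alkaline ceramidase of the Golgi (chr9:19409059-19452020, plus strand), had 30.5 and 46.8 CPM with the hairpins, against 16.6 CPM in the control of PA-1, and 95.1 and 89.8 CPM, against 28.1 CPM, in TOV21G. These are 1.83-fold and 2.82-fold differences in PA-1 and 3.39-fold and 3.20-fold in TOV21G. The mean log2 fold change was 1.47 (SE 0.25), with an edgeR adjusted p of 0.547 and a DESeq2 adjusted p of 0.000995.

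The sestrins, stress proteins that restrain mTORC1, were higher with both hairpins in both lines. SESN1 (chr6:108986437-109094819, minus strand) had 69.7 and 88.8 CPM with the hairpins, against 60.0 CPM in the control of PA-1, and 97.8 and 97.1 CPM, against 46.5 CPM, in TOV21G. SESN2 had 27.3 and 36.1 CPM, against 26.1 CPM in the control of PA-1, and 101 and 139 CPM, against 80.3 CPM, in TOV21G. For SESN1 the fitted log2 change was 1.07 (SE 0.28) in TOV21G and 0.40 (SE 0.27) in PA-1, and the difference between the lines, 0.67 (SE 0.37), did not pass edgeR (unadjusted p = 0.134, adjusted p = 1).

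ISCU, the scaffold for iron-sulphur clusters, had 42.8 and 48.2 CPM with the hairpins, against 33.0 CPM in the control of PA-1, and 97.8 and 111 CPM, against 61.0 CPM, in TOV21G. FDXR, the ferredoxin reductase that supplies electrons to that pathway, had 20.5 and 30.6 CPM, against 14.6 CPM in the control of PA-1, and 55.1 and 42.2 CPM, against 31.0 CPM, in TOV21G. TIGAR, a phosphatase that diverts glucose to the pentose phosphate pathway, had 48.2 and 52.4 CPM, against 39.2 CPM in the control of PA-1, and 129 and 153 CPM, against 88.6 CPM, in TOV21G. All 3 were above the control in all 4 hairpin libraries. Their mean log2 changes were 0.62 for ISCU (SE 0.18), 0.73 for FDXR (SE 0.26) and 0.52 for TIGAR (SE 0.18), and none passed edgeR after adjustment. At the other end, the AMPK subunit PRKAB1, the carboxylesterase CES2 and the peptidase PGPEP1 had mean log2 values of 0.07 (SE 0.18), 0.06 (SE 0.22) and 0.18 (SE 0.20). TP53I3, CMBL and NADSYN1 were above the control in all 4 libraries, with mean log2 changes between 0.42 and 0.52, and FUCA1 in all but hairpin 2 of TOV21G.

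Of the 14 genes of secretion, signalling and turnover, 10 were higher with both hairpins in PA-1 (33.8% of all genes) and 11 in TOV21G (31.3%), 8 of them in all 4 libraries (14.3%). KITLG, the ligand of the KIT receptor (chr12:88492793-88580851, minus strand), had 61.3 and 85.3 CPM with hairpins 1 and 2, against 36.6 CPM in the control of PA-1, and 101 and 337 CPM, against 50.9 CPM, in TOV21G. All 4 hairpin libraries were above their control, and hairpin 2 in TOV21G stood apart at 6.61-fold. The fitted log2 change in TOV21G was 2.11 (SE 0.79), and it was 0.99 without hairpin 2 and 2.73 without hairpin 1.

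GDF15, a secreted stress cytokine (chr19:18374731-18389176, plus strand), had 8.01 and 19.2 CPM with the hairpins, against 5.35 CPM in the control of PA-1, and 296 and 697 CPM, against 318 CPM, in TOV21G. Hairpin 2 was above the control in both lines and hairpin 1 was not in TOV21G. RPS27L, a ribosomal protein paralog that binds MDM2, had 51.8 and 76.5 CPM, against 33.2 CPM in the control of PA-1, and 99.1 and 180 CPM, against 78.9 CPM, in TOV21G. Reads of RPS27L can be shared with its close paralog RPS27.

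FBXO22, the substrate receptor of a ubiquitin ligase, had 118 and 129 CPM with the hairpins, against 82.6 CPM in the control of PA-1, and 161 and 149 CPM, against 78.3 CPM, in TOV21G. SUSD6, a membrane protein, had 17.8 and 18.8 CPM, against 12.1 CPM in the control of PA-1, and 42.7 and 48.9 CPM, against 22.6 CPM, in TOV21G. The hairpins agreed closely for both genes, with mean log2 fold changes of 0.78 (SE 0.17) and 0.81 (SE 0.19) and an edgeR adjusted p of 0.547 for each. ORAI3, a store-operated calcium channel subunit, had 7.04 and 8.44 CPM, against 5.22 CPM in the control of PA-1, and 8.24 and 4.84 CPM, against 2.08 CPM, in TOV21G. TM7SF3, BLOC1S2 and ANKRA2 were higher in all 4 libraries, by 0.14 to 1.02 in log2 CPM, while RNF19B lay on either side of the control in TOV21G and DCP1B in PA-1. FBXO22 shares exon bases with NRG4 on the opposite strand and ORAI3 with another gene on its own strand. Of the 60 genes, 21 share exon bases with a gene on either strand, 18 on the opposite strand and 3 on the same strand. The strand setting of the counting is not given in the sources used here.

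The next question was whether knockdown effects differed between the lines. Subtracting the PA-1 effect from the TOV21G effect gave a median of 0.18 over the 60 genes, and none passed edgeR after adjustment (0% of all genes) or DESeq2 (0.0356% of all genes higher and 0.0771% lower). At an unadjusted p under 0.05 there were 2, CD82 higher (1.31% of all genes) and SFN lower (2.50%). Both hairpins were above the control in TOV21G and below it in PA-1 for 2 genes, CD82 and TSKU (7.38% of all genes), and the reverse held for 1, SFN (7.32%). CD82, a tetraspanin that suppresses cell migration (chr11:44564427-44620363, plus strand), had 9.63 and 10.3 CPM with the hairpins, against 2.34 CPM in the control of TOV21G, and 13.9 and 13.4 CPM, against 17.2 CPM, in PA-1. It was about 4-fold above the control in TOV21G and below it in PA-1, and the hairpins of a line gave nearly the same level.

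SFN, which encodes 14-3-3 sigma and blocks entry into mitosis (chr1:26863138-26864457, plus strand), had the opposite pattern. It had 15.4 and 20.4 CPM with the hairpins, against 34.1 CPM in the control of TOV21G, and 2.49 and 4.58 CPM, against 1.01 CPM, in PA-1, where the control held 16 expected counts. TSKU, a secreted leucine-rich proteoglycan (chr11:76782251-76798154, plus strand), had 55.5 and 43.7 CPM, against 28.2 CPM in the control of TOV21G, and 22.8 and 21.2 CPM, against 23.8 CPM, in PA-1, a line in which its libraries differed little.

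The levels of the targets in the lines themselves were compared next, as the mean of both TOV21G groups over that of both PA-1 groups. The median log2 difference was 0.72 over the 60 genes and 0.01 over all genes tested. After adjustment edgeR called 27 of the 60 higher in TOV21G (20.0% of all genes) and 6 lower (20.6%), and DESeq2 called 28 (19.6%) and 6 (20.6%). TNFRSF10A, SPATA18 and EDA2R had to differ, since they passed the filter through 1 line, and among the 57 genes with reads in both lines edgeR called 25 higher and 5 lower. The higher ones included 11 of the 13 metabolism genes, 7 of 19 cell death genes (TNFRSF10A and SPATA18 among them), 4 of 9 arrest genes, 4 of 14 signalling genes and 1 of 5 repair genes. Leaving out each hairpin library in turn gave a median log2 difference of 0.72 to 0.73. The counts of calls changed with the library left out, among the 60 and over all genes. The lower ones with all libraries were CCNG1, E2F7, PMAIP1, EDA2R, ASCC3 and CD82. In 33 genes every TOV21G library was above every PA-1 library (29.4% of all genes), and in 6 every one was below (30.8%), or 31 and 5 of the 57.

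On the length-scaled TPM scale, the median over the 60 genes was 56.7 and 52.0 TPM with the hairpins, against 31.8 TPM in the control of TOV21G, and 24.6 and 28.4 TPM, against 19.3 TPM in the control of PA-1, while the median over all genes tested was 11.5 to 14.6 TPM in the 6 libraries. The highest targets in the TOV21G control were GDF15 at 653 TPM, PLK2 at 268 TPM, CCNG1 at 216 TPM, ISCU at 155 TPM and PERP at 151 TPM. In the PA-1 control they were CCNG1 at 818 TPM, BAX at 236 TPM, PERP at 116 TPM, TNFRSF10B at 108 TPM and TRIAP1 at 102 TPM. The order of neighbours such as ISCU and PERP rests on single libraries and cannot be separated from their spread. By the fit, the log2 difference between TOV21G and PA-1 was 5.54 (SE 0.64) for GDF15, 4.38 (SE 0.40) for PLK2, 3.83 (SE 0.25) for FAS, 3.70 (SE 0.37) for SFN and 2.87 (SE 0.24) for BTG2 (edgeR adjusted p = 0.00324, 0.00172, 0.000934, 0.00225 and 0.00136). TNFRSF10A and SPATA18 were at least 107-fold and 158-fold higher in TOV21G, counted from the lowest TOV21G library to the limit of 3 counts per PA-1 library. EDA2R, with 12 expected counts in the highest TOV21G library, was 26.7-fold higher in the lowest PA-1 library than in that one.

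**Figure D4:**
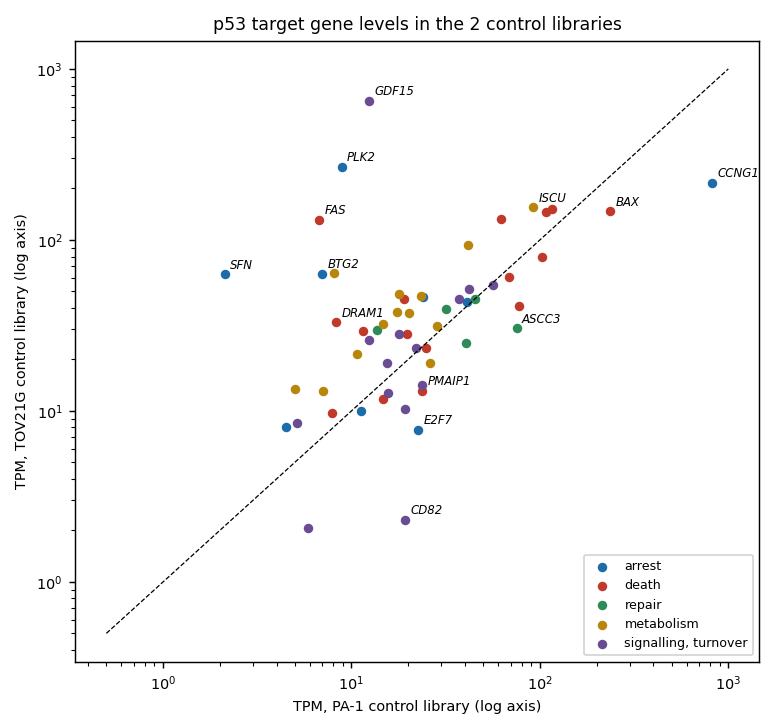
Abundance in TPM of the p53 target genes in the TOV21G control (vertical, log axis) and the PA-1 control (horizontal, log axis), 1 library each, coloured by role, with the dashed line at equal values; genes at 0 TPM in a control are not plotted. Most points lie above the line, with GDF15 at 653 TPM in TOV21G and 12.5 TPM in PA-1, and CCNG1 and CD82 lie below it.

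The last comparison was between the hairpins, in an additive fit of line and hairpin. Over both lines the median log2 fold change of the 60 genes was 0.65 for hairpin 2 over control and 0.48 for hairpin 1 over control, 2 values that share the controls. At an unadjusted p under 0.05, 33 genes were higher with hairpin 2 (7.48% of all genes) and 1 lower (6.06%), and 21 were higher with hairpin 1 (3.49%) and 0 lower (3.35%). None passed edgeR after adjustment with hairpin 2 (0.0593% of all genes higher and 0.00593% lower) or hairpin 1 (0%). DESeq2 called 10 higher (1.29%) and 1 lower (0.611%) with hairpin 2, and 3 higher (0.243%) and 0 lower (0.0890%) with hairpin 1.

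Compared directly, hairpin 2 was above hairpin 1 in both lines for 29 genes (29.5% of all genes) and below it in both for 11 (29.4%). For hairpin 2 minus hairpin 1, edgeR called 0 genes after adjustment (0% of all genes). At an unadjusted p under 0.05 it gave 7 higher with hairpin 2 (6.12% of all genes), GADD45A, TNFRSF10B, DRAM1, RRM2B, GDF15, KITLG and RPS27L, and 3 lower (4.21%), PIDD1, TRAF4 and RAP2B. GDF15 had a log2 fold change of 1.25 (SE 0.24), an edgeR adjusted p of 0.313 and a DESeq2 adjusted p of 0.00266, which made it the 1 gene of the 60 that DESeq2 called (0.575% of all genes were called higher). RAP2B, a small GTPase of the RAS family, lay at the other end at -0.99 (SE 0.25). It had 87.6 and 54.2 CPM with hairpins 1 and 2, against 58.6 CPM in the control of PA-1, and 71.9 and 28.6 CPM, against 53.5 CPM, in TOV21G.

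**Figure D5:**
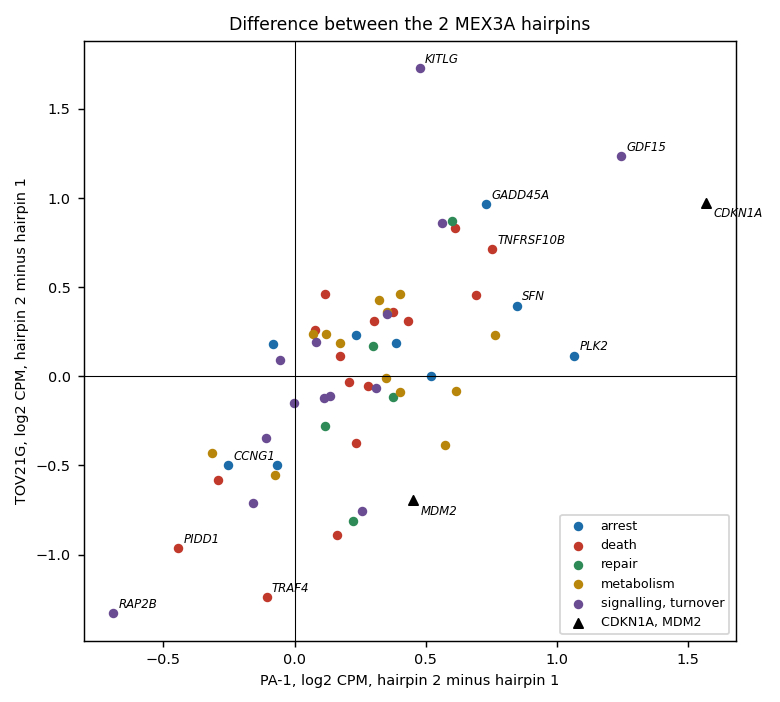
Difference in log2 CPM between hairpin 2 and hairpin 1 in TOV21G (vertical) and PA-1 (horizontal) for the p53 target genes with reads in both lines, coloured by role, with CDKN1A and MDM2 as triangles. GDF15 and CDKN1A lie high in both lines, KITLG is highest in TOV21G at 1.73 with 0.48 in PA-1, RAP2B lies low in both, and MDM2 lies above 0 in PA-1 and below 0 in TOV21G.

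The best known targets, left out of the 60, were both higher in all 4 libraries. CDKN1A, the p21 inhibitor of cyclin-dependent kinases, had 35.4 and 105 CPM, against 18.9 CPM in the control of PA-1, and 1103 and 2168 CPM, against 692 CPM, in TOV21G. MDM2 had 367 and 502 CPM, against 164 CPM in the control of PA-1, and 1058 and 654 CPM, against 377 CPM, in TOV21G.

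Of 20 genes that regulate p53, 19 were tested, and their median log2 fold change was -0.07 in PA-1 and -0.06 in TOV21G. In PA-1, 6 of the 20 were higher with both hairpins (33.8% of all genes) and 10 lower (34.0%). In TOV21G 5 were higher (31.3%) and 6 lower (31.9%). HIPK2, a kinase that phosphorylates p53, had the smallest p for the mean, with 276 and 234 CPM, against 316 CPM in the control of PA-1, and 258 and 302 CPM, against 437 CPM, in TOV21G. PPM1D, the phosphatase that opposes p53 and is induced by it, had 51.9 and 54.5 CPM, against 47.8 CPM in the control of PA-1, and 52.9 and 47.0 CPM, against 36.3 CPM, in TOV21G. CHEK1 and KAT5 had mean log2 fold changes of -0.50 (SE 0.24) and -0.31 (SE 0.17). None of the list passed edgeR after adjustment.

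A further 23 reported p53 targets, kept apart because other pathways also control many of them, had a median log2 fold change of 0.48 in PA-1 and 0.43 in TOV21G. With both hairpins, 11 were higher (33.8% of all genes) and 4 lower (34.0%) in PA-1, and 13 higher (31.3%) and 3 lower (31.9%) in TOV21G. TNFRSF10D, a decoy receptor for TRAIL, CSF1, a macrophage growth factor, and SAT1, a polyamine acetyltransferase, were higher in all 4 libraries, with mean log2 changes of 1.28 (SE 0.30) for TNFRSF10D, 1.29 (SE 0.34) for CSF1 and 1.03 (SE 0.27) for SAT1. None of the 23 passed edgeR after adjustment. Targets of ATF4, the factor of the integrated stress response that shares SESN2 and GDF15 with p53, had a median of -0.03 in PA-1 and -0.16 in TOV21G over 10 genes.

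Other measures differed in the same libraries. Of 13 proliferation genes, 11 were lower with both hairpins in PA-1 (34.0% of all genes) and 13 in TOV21G (31.9%). The 13 genes summed to 2563 and 2396 CPM with the hairpins, against 2962 CPM in the control of PA-1. In TOV21G they summed to 943 and 758 CPM, against 2048 CPM. The nuclear RNA NEAT1 had 270 and 273 CPM, against 119 CPM in the control of PA-1, and 1133 and 1068 CPM, against 361 CPM, in TOV21G, and MALAT1 had 1303 and 1113 CPM, against 910 CPM, and 9429 and 18455 CPM, against 4315 CPM. The share of counts in 79 ribosomal protein genes was 4.40% and 4.68% with the hairpins, against 5.06% in the control of PA-1, and 4.22% and 4.11%, against 4.69%, in TOV21G. The part of these differences in the values of the p53 targets was not tested.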

How the data were processed

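For each of 6 libraries the authors deposited an RSEM gene table with, per the file headers, the expected count (RSEM's estimated reads per gene), TPM (abundance scaled by transcript length) and FPKM, of which FPKM was not used. Per the submitters' processing notes, cutadapt 1.12, STAR 2.5.3a, RSEM 1.2.31, edgeR 3.26.8 and hg38 were named, and the role of edgeR and the strand setting of the counting are not given in the sources used here. How RSEM shares reads among related genes can move the values of paralogs.

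Expected counts were rounded and fitted with edgeR 4.0.16 in R 4.3.3 (TMM, filterByExpr on the 4 groups of line by hairpin target, minimum count 10, quasi-likelihood F test). The fit left 2 residual degrees of freedom and a biological coefficient of variation of 0.295, shared by both lines. Fitted alone, PA-1 gave 0.164 and TOV21G 0.389, so the shared value is above that of PA-1 and below that of TOV21G. An adjusted p (Benjamini-Hochberg, over all genes tested) under 0.05 was called. Each single control was assumed to vary as the hairpin libraries did. SE is the absolute log2 fold change over the square root of F. Hairpin effects over both lines came from an additive fit of line and hairpin. Differences of single libraries used log2 CPM with a prior count of 2 and no test. The script was tested on simulated data, and DESeq2 1.42.0, other scalings, filters, prior counts and leaving out each hairpin library were tried.

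The members and lists were chosen with earlier results of these data known. Of the 60 genes, 32 fell under a naming rule: per line the 8 highest by the smaller difference of both hairpins, at a mean of at least 5 CPM, and up to 4 lower ones, the 6 with the largest smallest-of-4 differences, the 3 with the smallest p for the mean per role group, the 4 with the smallest p between lines and between hairpins, and the 5 highest by TPM in each control. Other lists gave up to 4 genes by p, and some genes that the rule names are not reported here. The others were given by counts or named after their values were seen. Gene positions are from GENCODE v29 (GRCh38).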

Additional observations from a re-analysis of the deposited data

Results flagged for a closer look

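In 3 of the p53 targets both hairpins lay on one side of the control in TOV21G and on the other side in PA-1, 2 of them higher in TOV21G (7.38% of all genes) and 1 lower (7.32%). Both counts were smaller shares of the targets than of all genes. The effect in TOV21G less that in PA-1 was -2.74 (SE 0.69) for SFN, 2.43 (SE 0.43) for CD82 and 0.93 (SE 0.39) for TSKU on the log2 scale. In edgeR's interaction test the unadjusted p was 0.0103, 0.00218 and 0.0616, and none passed after adjustment over all genes (adjusted p = 1 for each). The 3 genes were picked for their opposite directions, which favours a small unadjusted p in that test. DESeq2 gave adjusted p values of 0.514 for SFN and 0.311 for CD82, and did not call TSKU either. The SFN value rests on 41 and 90 expected counts with the hairpins, against 16 in the control of PA-1, and the CD82 value on 146 and 153 expected counts with the hairpins, against 36 in the control of TOV21G. In the same libraries the clear cell markers ANXA4, NAPSA and SPP1 summed to 1823 and 3964 CPM with the hairpins, against 6669 CPM in the control of TOV21G, and to 924 and 881 CPM, against 184 CPM, in PA-1. Their part in these values was not tested.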

How the results depend on the processing

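No median or single-gene value that was compared changed sign under any alternative. Genes with an effect smaller than its SE were not compared. Over all alternatives, 226 summary values (counts and medians) stayed within the tolerance used. Of the others, 9 medians moved beyond it, and 15 counts were larger and 2 smaller. For medians the tolerance followed their SD between libraries. That SD was 0.014 in TOV21G, 0.17 in PA-1 and 0.22 for hairpin 1 over control. A small shift was therefore counted in TOV21G where a larger one in PA-1 was not. The PA-1 median of 0.41 rose to 0.54 when its hairpin 1 library was dropped. It fell to 0.30 when the other hairpin library of that line was dropped instead. The median for hairpin 1 over control, 0.48, ranged from 0.35 to 0.59 in such fits. Of the single-gene values, 785 kept their direction and side of the threshold, and 34 passed it only under the alternative. They covered genes under the naming rule and a few genes outside the 60, in PA-1, TOV21G and the mean. TNFRSF10A, SPATA18 and EDA2R were left out. The main fit called 0 of all genes in these comparisons, so no value could lose a call. DESeq2 called 1 of the 60 genes higher in PA-1, 4 in TOV21G, 3 for the mean, 3 with hairpin 1, 10 with hairpin 2 (and 1 lower) and 1 for hairpin 2 minus hairpin 1, where edgeR called 0. With no filter on low counts edgeR called 8 higher with hairpin 2, when 200 of all genes were called, against 11 with the filter. The TOV21G median of 0.65 became 0.62 with no filter. The median TOV21G difference with hairpin 1, 0.61, became 0.69 on library totals, 0.75 on TPM (where the median of all genes moved by 0.13) and 0.59 with a prior count of 5, and that with hairpin 2, 0.63, became 0.56 on library totals. Leaving out each hairpin library in turn gave 0 to 12 genes higher and 0 to 1 lower in TOV21G, and 0 to 9 higher and 0 to 1 lower for the mean. The upper ends came without TOV21G hairpin 1, where 1643 of all genes in TOV21G and 664 for the mean were called, and without TOV21G hairpin 2 these were 0 and 0. The same series gave TOV21G medians of 0.61 to 0.65, 0 to 3 genes higher with hairpin 2 and 0 to 1 higher for hairpin 2 minus hairpin 1 (3 and 1 without PA-1 hairpin 2, when 321 and 136 of all genes were called), with medians of 0.10 to 0.26, and for the level 15 to 38 higher and 3 to 10 lower (15 without PA-1 hairpin 1, 3 without PA-1 hairpin 2, 10 without TOV21G hairpin 1), when 3778 to 9963 of all genes were called. The cause of these changes was not tested.

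Hairpin numbers are shared by the lines but mark a reagent in the labels. Deviations from the group means correlated at r = 0.236 over 16855 genes and r = 0.386 over the 11556 with a mean of at least 5 CPM, while the labels give no batch. With the hairpin number as a replicate block, 0 of the 60 genes were called in PA-1, TOV21G, the mean or the difference and 39 for the level (8229 of all genes, against 6837 without the block), and the TOV21G median was 0.62, while 13, 36 and 22 of all genes were called in PA-1, TOV21G and the mean, against 0 without the block. Depth limited SFN in PA-1, EDA2R in TOV21G and CD82 and ORAI3 in the TOV21G control. Restricting to genes over 3 counts in every library of a line, chosen after seeing the data, left 58 genes in PA-1 with medians of 0.30 and 0.55 and 59 in TOV21G with 0.61 and 0.63.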
